A study of Homo sapiens with 6 samples.

Results

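The 39 genes described here encode receptor tyrosine kinases outside the ERBB family, chosen by name from families that include the Eph, FGF, insulin, MET, PDGF, VEGF, neurotrophin, ROR and discoidin domain receptors. All 39 were found by gene symbol among the 19903 genes of each table. They were taken by family and not by level, though earlier results of these data were known when they were chosen. RNA was sequenced from 3 human lines labelled as lung cancer lines at passage 5. Each line (A549, H1299, and a line labelled H2030) carried a vector that overexpresses NHLRC1, the gene of the E3 ubiquitin ligase malin, or an empty vector, with 1 library per line and vector. The promoter of the vector, and whether a line was 1 clone or a pool, are not given in the sources used here. Values are FPKM, fragments scaled to transcript length and library total, so levels can be compared between genes. In such bulk RNA, fewer cells that express a gene and less RNA per cell cannot be told apart.

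Receptor tyrosine kinases are single-pass membrane proteins that pair up when an extracellular ligand binds and then phosphorylate each other and their adaptors. The signal runs through RAS, MAP kinases and PI3 kinase to growth, survival and movement. Eph receptors, the largest family, are activated by ephrins on neighbouring cells. In carcinoma cells of the lung, MET, the receptor of hepatocyte growth factor, and IGF1R are well-known growth receptors. A few members, among them PTK7, RYK, EPHA10 and EPHB6, are regarded as pseudokinases with little or no catalytic activity.

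The labels were checked first. NHLRC1 was at 6.82 FPKM with malin and 1.21 with the empty vector in A549, at 119.2 and 2.85 in H1299, and at 3.69 and 0.18 in the pair labelled H2030. In the malin library labelled H2030 the heading of the values abbreviates HEK293T, a line from embryonic kidney, so that pair is called the pair labelled H2030 throughout. Of 10 lung epithelial markers, 5 were at 1 FPKM or more in both libraries of A549, 3 in H1299 and 5 in that pair. Their summed level was 952.9 to 3917 FPKM in A549 and H1299, against 163.1 with malin and 186.4 with the empty vector in that pair. Most of it came from the keratins KRT7, KRT8 and KRT18 in A549. In H1299 it came from KRT8 and KRT18, with KRT7 at 1.24 FPKM with malin and 1.09 with the empty vector. EPCAM (5.41 and 8.55 FPKM) and NKX2-1 (3.78 and 1.85 FPKM), by contrast, were highest in the pair labelled H2030. The surfactant genes SFTPB and SFTPC were at most 0.11 FPKM in all 6 libraries. Of 8 genes of kidney development, 6 reached 1 FPKM in both libraries of the pair labelled H2030, 3 in A549 and 3 in H1299, with sums of 37.6 and 32.1 FPKM in that pair and 11.4 to 13.2 in the other lines. The endothelial markers PECAM1, CDH5 and VWF and the haematopoietic marker PTPRC were at most 0.09 FPKM in every library. Of 8 fibroblast and pericyte markers, 6 were in the tables and 4 of these reached 1 FPKM in that pair, with sums of 17.4 and 16.2 FPKM, against 1.66 to 6.32 in the other lines. Their part in the receptor differences was not tested. By the step between low values, each library held an estimated 8400000 to 10700000 fragments.

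Sequences before the gene start are shown for 6 receptors whose levels carry the results: MET and EPHA2, high in A549 and H1299, PTK7, KIT and FLT1, high in the pair labelled H2030, and EPHA7, which differed with malin in that pair. Each line holds the 100 bases before the outermost RefSeq start on GRCh38.p14, 5′ to 3′ on the strand of the gene. Capitals mark GC boxes (GGGCGG, searched on both strands and so also read as CCGCCC) and a TATAAA element.
MET, chr7:116672096-116672195, plus strand: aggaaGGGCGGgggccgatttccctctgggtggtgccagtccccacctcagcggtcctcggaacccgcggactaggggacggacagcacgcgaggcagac
EPHA2, chr1:16156070-16156169, minus strand: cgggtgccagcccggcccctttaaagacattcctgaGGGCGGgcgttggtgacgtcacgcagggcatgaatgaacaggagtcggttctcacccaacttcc
PTK7, chr6:43076214-43076313, plus strand: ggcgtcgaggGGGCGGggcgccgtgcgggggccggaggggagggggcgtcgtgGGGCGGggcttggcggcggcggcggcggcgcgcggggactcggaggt
KIT, chr4:54657857-54657956, plus strand: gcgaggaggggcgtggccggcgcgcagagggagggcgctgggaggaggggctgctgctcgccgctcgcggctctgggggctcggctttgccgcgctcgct
FLT1, chr13:28495129-28495228, minus strand: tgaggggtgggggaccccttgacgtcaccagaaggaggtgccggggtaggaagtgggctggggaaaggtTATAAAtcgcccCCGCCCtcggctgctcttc
EPHA7, chr6:93419560-93419659, minus strand: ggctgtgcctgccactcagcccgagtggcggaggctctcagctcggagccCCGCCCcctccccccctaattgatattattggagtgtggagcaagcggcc

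The windows differ in base composition. The printed stretch of PTK7 holds 19 CG dinucleotides and 2 GC boxes, that of KIT 14 CG dinucleotides and no GC box, and that of FLT1 5 CG dinucleotides with a TATAAA element ahead of its GC box. FLT1 was the 1 receptor of 37 with a sequence in the table that had TATAAA on the gene strand in the last 50 bases before the start, against 3.16% of 14079 protein-coding genes. Over the 250 bases before the start, 31 of 37 receptor promoters (83.8%) held a GC box on either strand, against 60.0% of the 14079. An observed-to-expected CpG ratio of at least 0.6 was found in 31 of 37 (83.8%), against 68.5% of all. Receptors that were present in all 3 lines had a median ratio of 0.855 (12 genes), those present in the pair labelled H2030 alone 0.83 (12 genes), and those present in no line 0.623 (11 genes). Presence means both libraries of a line at 1 FPKM or more, these groups come from the levels, the ratios are a description, and several genes have other starts.

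The repertoire of the pair labelled H2030 was the broadest. With a gene called present where both libraries of a line reached 1 FPKM, A549 had 16 of 39 receptors present, H1299 had 14, and the pair labelled H2030 had 28. Of all 17537 protein-coding genes, 62.9% were present in A549, 63.3% in H1299 and 67.9% in that pair. Present in all 3 lines were 14 receptors: EPHA2, EPHA10, EPHB2, EPHB4, FGFR1, FGFR4, IGF1R, INSR, MET, TYRO3, MERTK, DDR1, PTK7 and RYK. MST1R and ROR1 were present in A549 and in the pair labelled H2030. A further 12 were present in the pair labelled H2030 alone: EPHA3, EPHA4, EPHA6, EPHA7, EPHA8, EPHB3, EPHB6, FGFR2, FGFR3, KIT, FLT1 and ROR2. The other 11 were present in no line. No receptor was present in A549 or H1299 that the pair labelled H2030 lacked, though NTRK3 in A549 reached 1 FPKM in the empty-vector library.

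**Figure D1:**
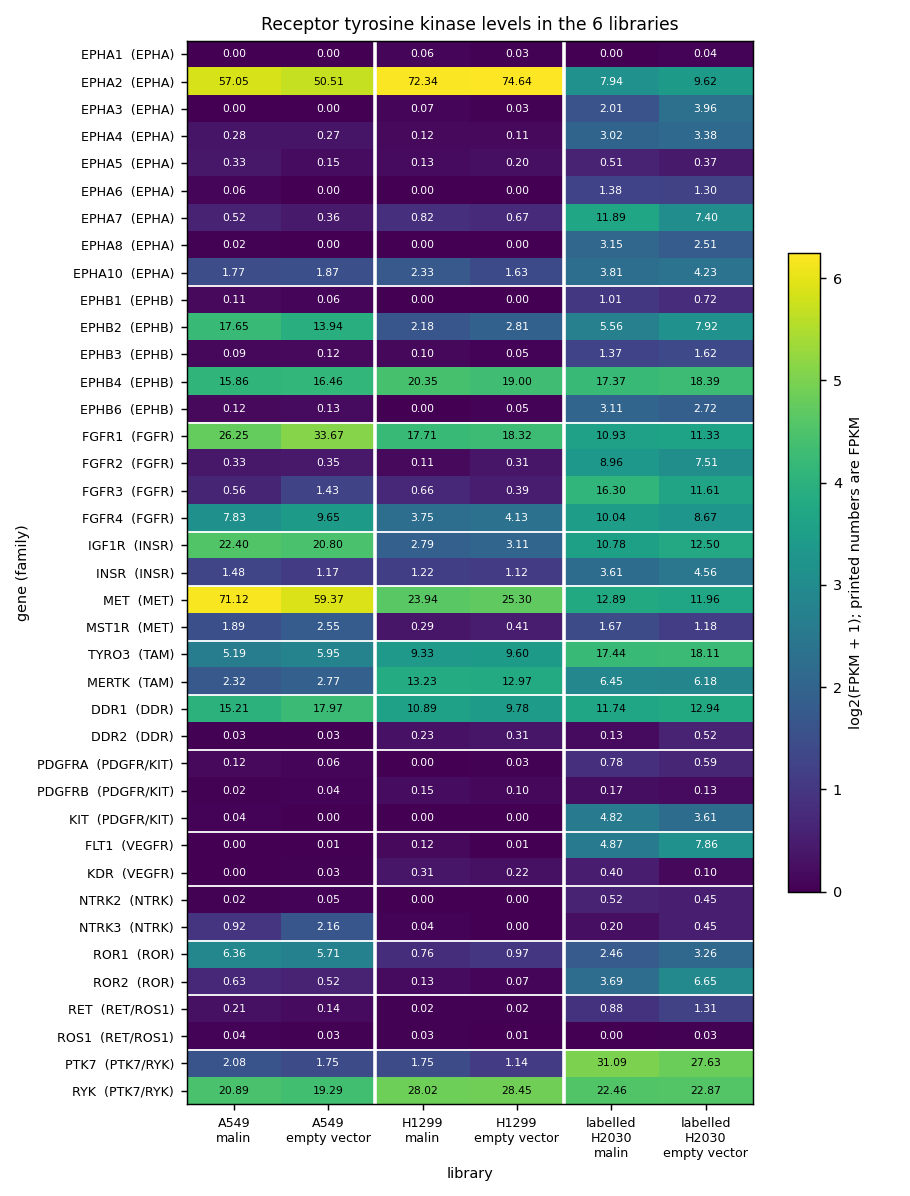
Level of each of the 39 receptor genes (rows, grouped by family) in the 6 libraries (columns), coloured by log2(FPKM + 1) with the FPKM printed in each cell. MET and EPHA2 are the brightest rows in A549, EPHA2 in H1299, and PTK7 among the libraries labelled H2030, where 28 rows are at 1 FPKM or more in both libraries.

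The summed receptor level differed less than the number of genes. The 39 genes summed to 279.8 FPKM with malin and 269.4 with the empty vector in A549, to 214 and 216 in H1299, and to 245.4 and 246.2 in the pair labelled H2030. The 3 highest receptors were MET, EPHA2 and FGFR1 in A549, with 55.2% of the sum with malin and 53.3% with the empty vector. In H1299 they were EPHA2, RYK and MET, with 58.1% and 59.4%. In the pair labelled H2030 they were PTK7, RYK and EPHB4, with 28.9% and 28.0%. By family, EPHA receptors held 21.5% of the A549 sum with malin and 19.7% with the empty vector, 35.5% and 35.8% in H1299, and 13.7% and 13.3% in the pair labelled H2030.

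**Figure D2:**
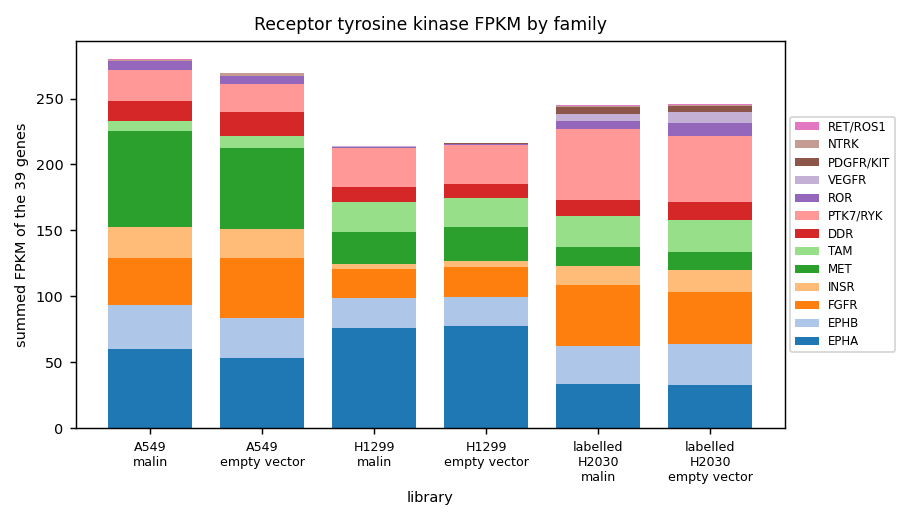
Summed FPKM of the 39 receptor genes in each library, stacked by family; bar height is the total of 1 library and there is no error. The MET family makes 26.1% and 23.0% of the A549 bars and 5.93% and 5.34% of those labelled H2030 (malin and empty vector).

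Among the Eph receptors, EPHA2, which is widely expressed in epithelial tumours, stood highest. It was at 57.1 FPKM with malin and 50.5 with the empty vector in A549, at 72.3 and 74.6 in H1299, and at 7.94 and 9.62 in the pair labelled H2030, so both libraries of that pair lay below the other 4. EPHB4, the receptor of ephrin B2, was nearly level over lines, at 15.9 and 16.5 in A549, 20.4 and 19 in H1299, and 17.4 and 18.4 in the pair labelled H2030. EPHB2 was highest in A549, at 17.7 with malin and 13.9 with the empty vector, against 2.18 and 2.81 in H1299 and 5.56 and 7.92 in the pair labelled H2030. The other A-class receptors were low in A549 and H1299. EPHA7 was at 0.52 and 0.36 FPKM in A549 and 0.82 and 0.67 in H1299, against 11.9 with malin and 7.4 with the empty vector in the pair labelled H2030. EPHA3 stood at 0 in A549 with either vector and at 0.07 and 0.03 in H1299, against 2.01 and 3.96 in that pair. EPHA4 was at 0.28 and 0.27 in A549 and 0.12 and 0.11 in H1299, against 3.02 and 3.38.

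Most of the remaining Eph receptors were also under 1 FPKM in A549 and H1299. EPHA8 was at 0.02 with malin and 0 with the empty vector in A549 and listed at 0 in both H1299 libraries, against 3.15 and 2.51 in the pair labelled H2030. EPHA6 was at 0.06 and 0 in A549 and 0 in both H1299 libraries, against 1.38 and 1.3. EPHB3 was at most 0.12 in A549 and H1299, against 1.37 and 1.62. Of the pseudokinases of the family, EPHB6 showed this pattern, with 0.12 and 0.13 in A549 and 0 and 0.05 in H1299, against 3.11 and 2.72, whereas EPHA10 was present in each line, at 1.77 and 1.87, 2.33 and 1.63, and 3.81 and 4.23 FPKM over A549, then H1299, then the pair labelled H2030. EPHB1 straddled the threshold in that pair, at 1.01 with malin and 0.72 with the empty vector, and was at most 0.11 elsewhere. EPHA1 and EPHA5 were under 1 FPKM in all libraries, at most 0.06 and 0.51.

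Of the FGF receptors, FGFR1 was highest in A549 and H1299, and FGFR3 in the pair labelled H2030. FGFR1 was at 26.3 FPKM with malin and 33.7 with the empty vector in A549, at 17.7 and 18.3 in H1299, and at 10.9 and 11.3 in the pair labelled H2030. FGFR3 was at 0.56 and 1.43 in A549 and 0.66 and 0.39 in H1299, against 16.3 and 11.6. FGFR2 was at 0.33 and 0.35 in A549 and 0.11 and 0.31 in H1299, against 8.96 and 7.51. FGFR1 was thus highest in A549 and lowest in the pair labelled H2030 with no overlap between lines, while FGFR2 and FGFR3 were higher in that pair than in all 4 other libraries. FGFR4, the receptor of FGF19, was at 7.83 and 9.65 in A549, 3.75 and 4.13 in H1299, and 10 and 8.67 in the pair labelled H2030.

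MET, IGF1R and their relatives were highest in A549, except INSR. MET was at 71.1 FPKM with malin and 59.4 with the empty vector in A549, at 23.9 and 25.3 in H1299, and at 12.9 and 12 in the pair labelled H2030, with no overlap between lines. MST1R, the receptor of macrophage-stimulating protein, was at 1.89 and 2.55 in A549, 0.29 and 0.41 in H1299, and 1.67 and 1.18 in the pair labelled H2030. IGF1R was at 22.4 and 20.8 in A549, 2.79 and 3.11 in H1299, and 10.8 and 12.5 in the pair labelled H2030. In H1299 it thus stood below both other lines. INSR, the insulin receptor, was at 1.48 and 1.17 in A549 and 1.22 and 1.12 in H1299, against 3.61 and 4.56.

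TYRO3 and MERTK, receptors of GAS6 and protein S, and the collagen receptor DDR1 were present in all lines. TYRO3 was at 5.19 FPKM with malin and 5.95 with the empty vector in A549, 9.33 and 9.6 in H1299, and 17.4 and 18.1 in the pair labelled H2030. MERTK, with which phagocytes recognise dying cells, was at 2.32 and 2.77 in A549, 13.2 and 13 in H1299, and 6.45 and 6.18 in the pair labelled H2030. DDR1, a collagen receptor of epithelia, was at 15.2 and 18 in A549, 10.9 and 9.78 in H1299, and 11.7 and 12.9 in the pair labelled H2030. The highest lines thus differed, the pair labelled H2030 for TYRO3, H1299 for MERTK and A549 for DDR1. DDR2, the collagen receptor of mesenchymal cells, was at most 0.52 FPKM.

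PTK7 and RYK, pseudokinase co-receptors of Wnt signalling, differed in pattern. PTK7 was at 2.08 FPKM with malin and 1.75 with the empty vector in A549 and at 1.75 and 1.14 in H1299, against 31.1 and 27.6 in the pair labelled H2030. RYK varied little, at 20.9 and 19.3 in A549, 28 and 28.5 in H1299, and 22.5 and 22.9 in the pair labelled H2030. ROR1 and ROR2, receptors of WNT5A, took different lines. ROR1 was highest in A549, at 6.36 and 5.71, against 0.76 and 0.97 in H1299 and 2.46 and 3.26 in the pair labelled H2030. ROR2 was at 0.63 and 0.52 in A549 and 0.13 and 0.07 in H1299, against 3.69 and 6.65.

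Receptors known from vascular, haematopoietic and neural cells were mostly near 0. KIT, the receptor of stem cell factor, was at 0.04 FPKM with malin and 0 with the empty vector in A549 and 0 in both H1299 libraries, against 4.82 and 3.61 in the pair labelled H2030. FLT1, a VEGF receptor, was at 0 and 0.01 in A549 and 0.12 and 0.01 in H1299, against 4.87 and 7.86. Both genes stood clear of all other libraries in that pair, in which the mast cell and haematopoietic markers measured summed to 1.07 and 0.96 FPKM and the endothelial markers to 1.88 and 3.38. The 6 neuronal and glial markers summed to 32.5 FPKM with malin and 30.5 with the empty vector in A549, mostly from SNAP25, MBP and SYT1. Their sums were 16.2 and 14.9 in H1299, and 7.55 and 10.8 in the pair labelled H2030. Of the 6, 4 reached 1 FPKM in both libraries of that pair, 3 in A549 and 3 in H1299. GFAP (1.4 and 1.68 FPKM) and RBFOX3 (1.2 and 1.38 FPKM) were highest in that pair. The part of these markers in the receptor levels was not tested. NTRK3, the receptor of neurotrophin 3, was at 0.92 and 2.16 in A549, 0.04 and 0 in H1299, and 0.2 and 0.45 in the pair labelled H2030; its listed transcripts run from 2145 to 19984 bases, so its FPKM depends on the isoform assigned. RET, which binds GDNF-family ligands through GFRA co-receptors, was at 0.21 and 0.14 in A549 and 0.02 in both H1299 libraries, against 0.88 and 1.31. PDGFRA, PDGFRB, KDR, NTRK2 and ROS1 did not reach 1 FPKM in any library, with maxima of 0.78, 0.17, 0.4, 0.52 and 0.04.

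Differences between lines were tested in 1 limma fit of the 6 libraries with the vector as a covariate, taking the 2 libraries of a line as its replicates. These 2 libraries differ in vector and no label says that they came from separate cultures. With the vector as a term, the p-values measure how far the difference of malin and empty vector disagreed between lines. That spread is pooled over the 3 lines and may be technical. Over all tested genes the SD of the log2 difference was 0.40 in the pair labelled H2030, against 0.18 in A549 and 0.16 in H1299. The pair labelled H2030 thus also enters the p-values of A549 minus H1299. The filter at a mean of 1 FPKM was passed by 25 receptors, and 9 of these (EPHA3, EPHA4, EPHA7, EPHB6, FGFR2, FGFR3, KIT, FLT1 and ROR2) averaged under 1 FPKM in A549 and H1299 and passed through the pair labelled H2030, so their calls follow in part from the filter. In A549 minus H1299, 8 of the 25 were higher and 4 lower (limma, adjusted p under 0.05), where 27.2% and 34.5% of 12182 genes were. In A549 minus the pair labelled H2030, 7 were higher and 14 lower, where 22.1% and 45.0% of all genes were. In H1299 minus that pair, 5 were higher and 18 lower, where 23.8% and 40.9% were.

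A fit of all 39 receptors, with no filter, gave counts that do not depend on that choice. There 9 were higher and 4 lower in A549 minus H1299, where 19.3% and 24.1% of 17537 genes were (limma). In A549 minus the pair labelled H2030, 7 were higher and 21 lower, where 16.3% and 36.4% were, and the median log2 difference was -0.63 for the receptors and -0.15 for all genes. In H1299 minus that pair, 5 were higher and 25 lower, where 17.4% and 33.9% were, with medians of -0.89 and -0.12. Counted without a model, 21 of 39 receptors (53.8%) were higher in both libraries labelled H2030 than in all 4 others, where 35.7% of genes were, and 3 (EPHA2, FGFR1 and MET) were lower than in all 4, where 12.6% were. In A549, 8 receptors stood above and 9 below all 4 other libraries, where 15.4% and 27.0% of genes did. In H1299, 4 stood above and 15 below, where 18.0% and 22.2% did.

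**Figure D3:**
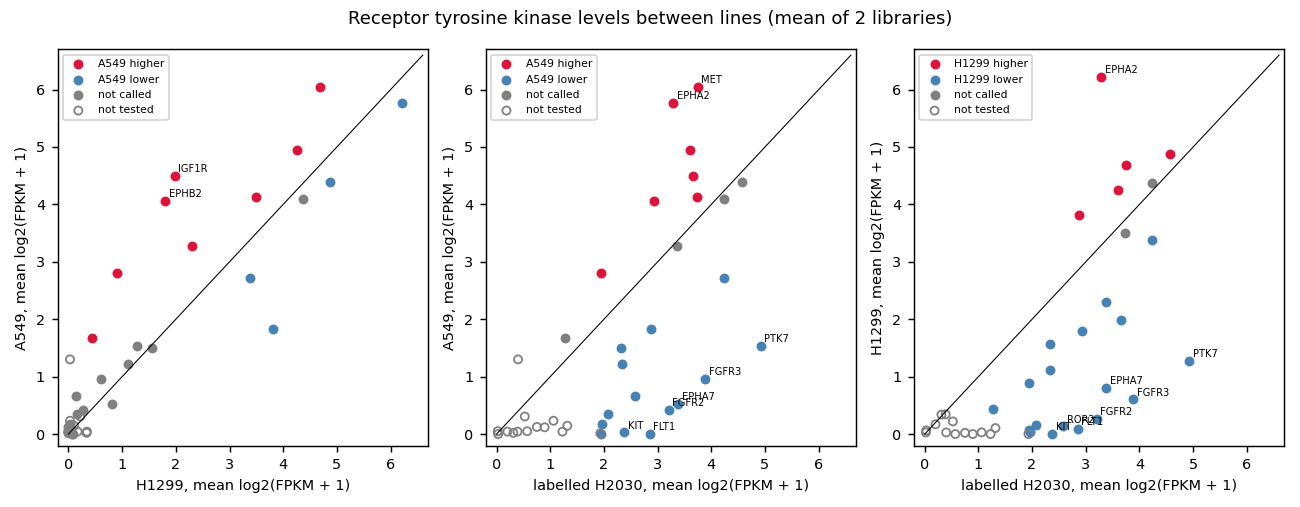
Mean log2(FPKM + 1) of the 2 libraries of each line for the 39 receptors, 1 panel per pair of lines, with the first line of the difference on the vertical axis. Filled red and blue points passed limma at an adjusted p of 0.05, grey points did not, and open points were under the filter; the 14 blue points of the middle panel and the 18 of the right panel lie below the line of equality, MET and EPHA2 above it.

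Large line differences were found for PTK7, FGFR3, EPHA2, MET and IGF1R, among others. PTK7 was lower in A549 than in the pair labelled H2030 by a log2 difference of -3.38 and lower in H1299 by -3.64 (limma, adjusted p = 1.85e-05 and 1.82e-05). FGFR3 differed by -2.92 and -3.28, FLT1 by -2.84 and -2.76, and KIT by -2.34 and -2.37 in the same contrasts. These 3 genes passed the filter through the pair in which they are high, so their p-values are taken from the fit without a filter (limma, adjusted p = 0.00219 and 0.00174 for FGFR3, 0.000934 and 0.00108 for FLT1, and 0.000506 and 0.000546 for KIT). EPHA2 was higher by 2.49 in A549 and by 2.93 in H1299 than in that pair (limma, adjusted p = 3.75e-05 and 2.71e-05). MET was higher by 2.30 in A549 than in that pair and by 1.37 in A549 than in H1299 (limma, adjusted p = 3.78e-05 and 0.000273). IGF1R was higher by 2.52 and EPHB2 by 2.26 in A549 than in H1299, and MERTK was lower by a log2 difference of -1.99 (limma, adjusted p = 5.07e-05, 0.000323 and 0.000119). RYK was lower in A549 than in H1299 by -0.47 ± 0.10 (limma's moderated SE, adjusted p = 0.009) and did not pass between A549 and the pair labelled H2030, at -0.17 (adjusted p = 0.195). EPHB4 passed in none of the 3 contrasts, with differences of -0.27, -0.14 and 0.13 (limma, adjusted p = 0.0758, 0.303 and 0.333). Over the alternatives its adjusted p ran between 0.0173 and 0.475 in A549 minus H1299, between 0.148 and 0.68 in A549 minus the pair labelled H2030, where the difference was 0.17 with median-of-ratios scaling, and between 0.0302 and 0.846 in H1299 minus that pair.

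Some smaller calls did not hold with 1 library fewer. Leaving out 1 library ended the A549 minus H1299 calls of DDR1, EPHA2, FGFR1, RYK and TYRO3 (limma, largest adjusted p 0.122, 0.272, 0.0745, 0.132 and 0.0664 over the alternatives tried, smallest 0.00115, 0.000678, 0.000262, 0.000626 and 0.000497). The calls of DDR1 and EPHA10 in A549 minus the pair labelled H2030 (largest 0.333 and 0.0566, smallest 0.00425 and 0.00158) and of EPHA10, FGFR1, MST1R and RYK in H1299 minus that pair (largest 0.105, 0.0739, 0.0684 and 0.292, smallest 0.00243, 0.00112, 0.000316 and 0.00531) were lost in the same way, and that of DDR1 in A549 minus that pair also without the filter. The log2 differences kept their sign over the alternatives, from -0.54 to -0.38 for RYK, -0.76 to -0.45 for TYRO3 and -0.61 to -0.29 for EPHA2 in A549 minus H1299, and a fit with 1 library fewer has fewer degrees of freedom. Some alternatives also gave calls where the test with all libraries gave none, for 5 receptors in A549 minus H1299 (EPHA4, EPHA7, EPHB4, FGFR3 and ROR2), 1 in A549 minus the pair labelled H2030 (MST1R) and 1 in H1299 minus it (EPHB4). Scaling by the median of ratios moved the median of all genes in A549 minus the pair labelled H2030 by more than 0.1, to 0.0029 on the log2 scale against -0.29 as deposited, and the share of lower genes among all calls to 48.7%, against 67.1% as deposited. In H1299 minus that pair the median was -0.01 after scaling and -0.22 as deposited, with lower shares of 50.5% and 63.2%. With that scaling 8 receptors were higher and 12 lower in A549 minus that pair and 6 and 16 in H1299 minus it, of 23 that passed the filter, and no called receptor changed sign.

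No receptor passed the test for malin over lines. The question was whether malin overexpression shifted receptor RNA. With the line as a block, 0 of 25 receptors passed limma at an adjusted p of 0.05, where 0.0% of 12182 genes did. NHLRC1 itself, which was higher with malin in every line, did not pass either. The test thus cannot show that receptor RNA was unchanged. At an unadjusted p under 0.05, limma gave 0 of 25 receptors and 213 of 12182 genes. The mean log2 differences of the 25 lay between -0.22 (EPHA3) and 0.30 (EPHA7). Of the 25, 2 lay above the empty vector in all 3 lines and 2 below it. The same was not counted over all genes, so these counts are no result about the receptors as a group. EPHA7 lay above, with a mean of 0.30 ± 0.14 (limma's moderated SE, adjusted p = 0.927), and so did PTK7, with 0.23 ± 0.11 (adjusted p = 0.927). The EPHA7 difference was 0.62 in the pair labelled H2030, through which it passed the filter, against 0.16 in A549 and 0.12 in H1299. FGFR1 and TYRO3 were below the empty vector in all 3 lines, with means of -0.15 ± 0.10 and -0.09 ± 0.10 (limma, adjusted p = 0.927 for each). Without the pair labelled H2030, 0 receptors passed in either direction (limma).

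Within a line there was no replicate, so differences are given by size. In A549, 0 of 25 receptors were 1.5-fold higher and 1 was lower on the FPKM + 1 scale, where 0.55% and 0.583% of all genes were. In H1299 the counts were 0 and 0, where 0.337% and 0.148% were. In the pair labelled H2030, 1 was higher and 3 were lower, where 4.28% and 7.33% were. A 2-fold difference was reached by 0 receptors in each line, where 0.115%, 0.0821% and 2.09% of genes reached it in A549, in H1299 and in that pair. The median log2 differences of the 25 receptors were 0, 0 and -0.05, and those of all genes 0, 0.005 and -0.03.

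**Figure D4:**
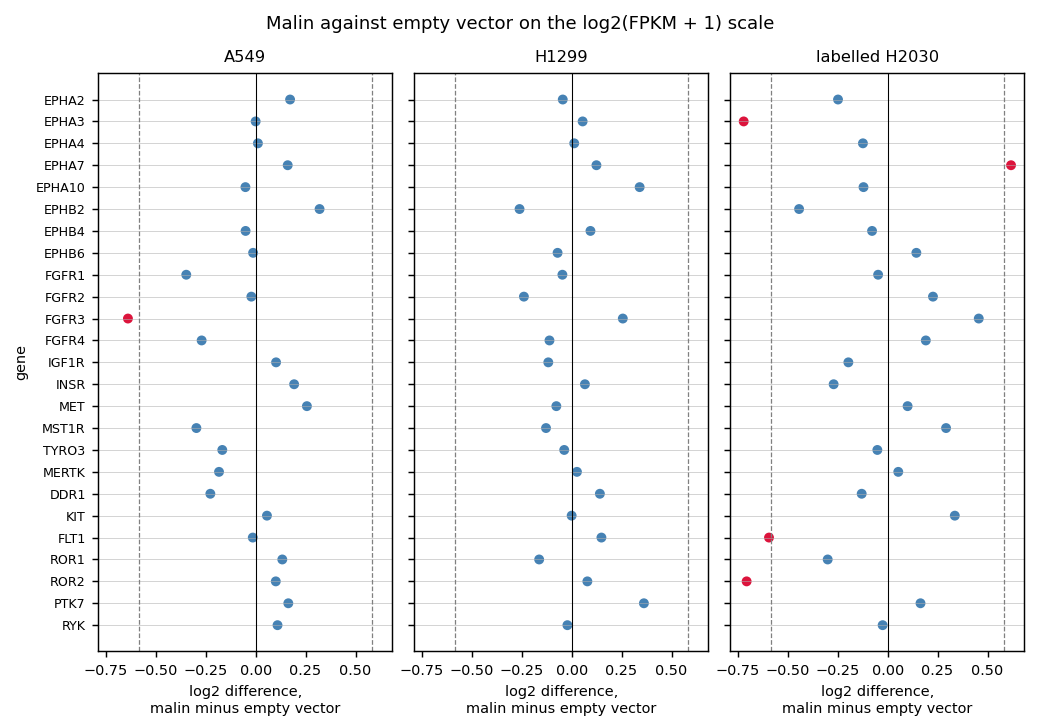
Log2((malin FPKM + 1)/(empty vector FPKM + 1)) of the 25 tested receptors in each line; each point is 1 pair of libraries, dashed lines mark 1.5-fold and red points lie past them. FGFR3 lies past the lines in A549, and EPHA7, EPHA3, FLT1 and ROR2 in the pair labelled H2030, whose points spread most.

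The differences past 1.5-fold concerned 5 genes. FGFR3 was lower with malin in A549, at 0.56 FPKM against 1.43 with the empty vector, a log2 difference of -0.64 that rests on an estimated 22 and 57 fragments (ratio 0.392, 95% exact binomial interval 0.223 to 0.635, counting error only). It was at 16.3 with malin and 11.6 with the empty vector in the pair labelled H2030, a difference of 0.46 on the log2 scale (ratio 1.40, interval 1.23 to 1.60). In that pair EPHA7 was higher with malin by 0.62, with an estimated 764 and 403 fragments (ratio 1.61, interval 1.42 to 1.82). ROR2 was lower by a log2 difference of -0.71 (146 and 223 fragments, ratio 0.555, interval 0.448 to 0.688), EPHA3 by -0.72 (49 and 81 fragments, ratio 0.508, interval 0.352 to 0.741) and FLT1 by -0.59 (87 and 120 fragments, ratio 0.62, interval 0.461 to 0.818). NTRK3, under the filter, was lower in A549 with 0.92 FPKM with malin against 2.16 with the empty vector (ratio 0.426, interval 0.246 to 0.761).

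Smaller differences also exceeded counting error. Estimated fragments could be given for 36 of the 39 receptors, not for EPHA2, DDR2 and PDGFRA. The interval excluded 1 for 9 of the 36 in A549, with 3 higher and 6 lower with malin. It did so for 1 in H1299 and for 11 in the pair labelled H2030, with 5 higher and 6 lower. The same share was not counted over all genes, and genes with many fragments pass at small ratios. These counts are therefore no result about the receptors as a group. No ratio is printed here for FGFR4, IGF1R, TYRO3 and DDR1 in A549, or for IGF1R, INSR, KIT, KDR and PTK7 in that pair. In A549 the interval of the ratio excluded 1 for MET, at 71.1 FPKM with malin and 59.4 with the empty vector (ratio 1.20, interval 1.14 to 1.26), FGFR1 (ratio 0.78, interval 0.716 to 0.848) and EPHB2 (ratio 1.27, interval 1.12 to 1.44). EPHB2 had a ratio on the other side of 1 in the pair labelled H2030, at 5.56 FPKM with malin and 7.92 with the empty vector (ratio 0.702, interval 0.569 to 0.866). In H1299 it excluded 1 for PTK7, at 1.75 FPKM with malin and 1.14 with the empty vector (ratio 1.54, interval 1.01 to 2.34). These genes were chosen after their values were seen, and whether the differences exceed the variation between cultures cannot be read from 1 library each.

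Ligands and signalling partners, taken from lists, passed the test between lines in part, and not for malin. Over all 12182 genes tested, 27.2% were higher and 34.5% lower in A549 minus H1299, 22.1% and 45.0% in A549 minus the pair labelled H2030, and 23.8% and 40.9% in H1299 minus that pair, and list counts near these shares say nothing particular of a list. Of 8 ephrins, the ligands of the Eph receptors, A549 had 4 present, H1299 had 5 and the pair labelled H2030 had 8. Of the 7 tested, 0 were higher and 4 lower in A549 minus that pair, and 0 higher and 7 lower in H1299 minus it (limma), where 45.0% and 40.9% of all genes were lower. The lists went through the same filter, and their counts were not made without it. EFNA3 was at 0.86 and 1.23 FPKM in A549 and 0.67 and 0.9 in H1299, and passed through the pair labelled H2030. Any call of EFNA3 against that pair thus follows in part from the filter. EFNB2, the ligand of EPHB4, was at 1.04 FPKM with malin and 0.41 with the empty vector in A549 and 2.72 and 2.86 in H1299, against 15.2 and 17.3 in the pair labelled H2030. With malin, 1 of the 7 ephrins was 1.5-fold higher in that pair, EFNA3 at 7.32 against 4.54 FPKM, where 4.28% of all genes were. In A549 and H1299 0 ephrins reached 1.5-fold.

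Of 41 other ligands, 37 were in the tables and 16 were tested. With malin, 0 of the 16 reached 1.5-fold in A549 or H1299, and 0 were higher and 2 lower in the pair labelled H2030, where 4.28% and 7.33% of all genes were. VEGFA, a ligand of FLT1 and KDR, was at 13.7 FPKM with malin against 39.5 with the empty vector in that pair, a log2 difference of -1.46. There FLT1 was lower with malin, at 4.87 against 7.86 FPKM. KDR was higher, at 0.4 against 0.1 FPKM, on an estimated 24 and 5 fragments. A link between these differences was not tested. MST1, the ligand of MST1R, was at 2.52 against 5.44. In A549 VEGFA was at 6.53 with malin and 8.03 with the empty vector, and in H1299 at 4.49 and 5.1. FGF2, a ligand of FGF receptors, was at 16.4 and 11.5 in A549, 6.6 and 7.02 in H1299, and 4.32 and 4.3 in the pair labelled H2030. GAS6, the ligand of TYRO3 and MERTK, was at 6.61 with malin and 9.77 with the empty vector in that pair. Of 4 tested co-receptors, 0 reached 1.5-fold with malin in any line. NRP1, a VEGF co-receptor, was at 79.9 and 72.5 FPKM in A549 and 1.98 and 1.92 in H1299, against 8.14 and 9.2 in the pair labelled H2030.

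Of the co-receptors, 3 were higher and 0 lower in A549 minus H1299, 2 and 1 in A549 minus the pair labelled H2030, and 0 and 3 in H1299 minus that pair (limma). The 16 ligands gave 5 and 5, 4 and 9, and 4 and 7 in the same contrasts, where 34.5%, 45.0% and 40.9% of all genes were lower.

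Adaptors carry the signal from the receptors and inhibitors restrain it. Of 22 tested adaptors, 5 were higher and 6 lower in A549 minus H1299, 3 and 10 in A549 minus the pair labelled H2030, and 5 and 9 in H1299 minus that pair (limma), where 34.5%, 45.0% and 40.9% of all genes were lower, so these counts lie near those of all genes. IRS4, an insulin receptor substrate that acts downstream of INSR and IGF1R, was at 0.03 FPKM with malin and 0.05 with the empty vector in A549 and 0.11 and 0.03 in H1299, against 314.8 and 174 in the pair labelled H2030. SHC2, a neural SHC adaptor, was at 3.72 with malin and 15.3 with the empty vector in that pair, and at most 0.4 elsewhere. IRS4 and SHC2 passed the filter through that pair, so any call of them against it follows in part from the filter. IRS4 was the 1 adaptor higher and SHC2 the 1 lower by 1.5-fold with malin in that pair, where 4.28% and 7.33% of all genes were. In A549 or H1299, 0 adaptors reached 1.5-fold. Of 18 tested inhibitors 2 were 1.5-fold lower with malin in the pair labelled H2030, SPRED2 at 5.4 against 10.7 FPKM and GRB10 at 18 against 28.3. Of all genes 7.33% were lower there, and such small counts say nothing particular of the adaptors or inhibitors. The inhibitors gave 5 higher and 10 lower in A549 minus H1299, 5 and 7 in A549 minus the pair labelled H2030, and 8 and 7 in H1299 minus it (limma), where 27.2%, 22.1% and 23.8% of all genes were higher and 34.5%, 45.0% and 40.9% lower. GRB10, which binds INSR and IGF1R, was at 0 and 0.02 FPKM in H1299.

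The 10 genes that respond to ERK, the MAP kinase downstream of these receptors, were mostly lower in the pair labelled H2030. In A549 minus that pair 9 of 10 were higher and 1 lower, and the same counts held in H1299 minus it (limma), where 22.1% and 23.8% of all genes were higher. FOSL1, an AP-1 subunit, was at 56.3 FPKM with malin and 38.1 with the empty vector in A549 and 269 and 286.1 in H1299, against 1.31 and 2.09. With malin 3 of the 10 were 1.5-fold lower in that pair, ETV5 at 0.23 against 1.65 FPKM, DUSP6 at 1.05 against 2.4 and EGR1 at 1.56 against 3.09, where 7.33% of all genes were 1.5-fold lower. In A549 and H1299 0 of the 10 reached 1.5-fold. The median log2 difference with malin in the pair labelled H2030 was -0.29 for the ERK targets, 0.19 for ephrins, -0.03 for the other ligands, -0.19 for co-receptors, -0.04 for adaptors and -0.09 for inhibitors, beside -0.03 for all genes. Of the ephrins, other ligands, co-receptors, adaptors, inhibitors and targets, 0 passed limma for malin over the 3 lines, where 213 of 12182 genes had an unadjusted p under 0.05.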

How the data were processed

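Each of 6 tables holds gene-level FPKM, per the file headers, deposited by the authors. Tools named in the submitters' processing notes are STAR, Cufflinks, cutadapt and FastQC, with the hg38 build; versions and strand use were not given there, so overlapping antisense genes cannot be told apart. The receptors and gene lists were chosen with earlier results of these data known. Values per library are given for receptors at 1 FPKM or more in any library, and of each list up to 4 genes with a mean of at least 1 FPKM and the largest absolute log2 difference with malin in any line were eligible to be named.

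The limma test (version 3.58.1, R 4.3.3) ran on log2(FPKM + 1) of 12182 protein-coding genes with a mean of at least 1 FPKM, with line and vector as terms, an intensity trend, 2 residual and a median of 3.9 prior degrees of freedom, and Benjamini-Hochberg adjustment over all genes. Libraries of a line are paired by the line they share. The fit was tested on simulated data. Fragment numbers come from the FPKM step of low genes having a single transcript between 600 and 2000 bases, less 100 bases: 78.8% to 82.1% of these values fell within 0.2 of whole fragments, against 40% for a step fixed in advance. They use the shortest listed transcript, and intervals cover counting error only. Promoters are from RefSeq (37 of 39 matched). Other software was matplotlib 3.10.9, scipy 1.17.1, pandas 2.3.3, numpy 2.4.6 and Python 3.11.15. Alternatives were pseudocounts, filters, scaling, no block or vector term, other presence levels and leaving out each line or library.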

Additional observations from a re-analysis of the deposited data

How the results depend on the processing

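No called receptor difference changed sign under an alternative. Over 20 summary results, 110 alternative values kept their place and 16 moved. A mean of at least 5 FPKM left 13 receptors, of which 4 were lower in A549 minus the pair labelled H2030 and 6 in H1299 minus it. Leaving out 1 library gave 1 to 6 receptors lower in A549 minus H1299 and 3 to 5 higher in H1299 minus the pair labelled H2030. For malin within lines, a pseudocount of 5 left 0 receptors 1.5-fold lower in A549 and 0 higher and 0 lower in the pair labelled H2030, a pseudocount of 0.1 gave 2 higher and 2 lower in H1299, and median-of-ratios scaling gave 1 lower and a median of -0.0007 in the pair labelled H2030. At 5 FPKM, H1299 had 8 receptors present and the pair labelled H2030 15. Without the replicate block 0 receptors passed for malin, as with it (limma), and 0 genes had an unadjusted p under 0.05, against 213 with it. Without the pair labelled H2030, 491 genes did and 1 gene passed. Over all genes, leaving out the empty-vector H1299 library gave 1985 higher in A549 minus H1299, against 3311 with all libraries; leaving out the malin H1299 library gave 2496 lower, against 4197. In H1299 minus the pair labelled H2030, 3267 were lower without the empty-vector H1299 library, against 4981. The causes were not tested. Depth limits the lowest receptors: EPHA3 in H1299 rests on an estimated 2 and 1 fragments with malin and with the empty vector.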
